A study of Mus musculus with 96 samples.

Results

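The genes of fatty acid synthesis were followed through mouse liver, liver tumours, their metastases and liver organoids (three-dimensional cultures of liver cells). They are 10 genes chosen by symbol, Srebf1, Thrsp, Acly, Acaca, Acacb, Fasn, Scd1, Scd2, Elovl6 and Me1, and all 10 were found among the 34591 gene symbols counted in each of 96 libraries. They were picked by symbol and known role, with earlier results of these data known.

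De novo synthesis turns carbon from sugar into fat, and liver and adipose tissue are its main sites in the mouse. Acly cleaves citrate into acetyl-CoA in the cytosol, Acaca and Acacb carboxylate acetyl-CoA to malonyl-CoA, and Fasn builds palmitate from both. The malonyl-CoA made by Acaca feeds synthesis, while Acacb sits at the mitochondrial surface, where its product restrains the entry of fatty acids for oxidation. Elovl6 lengthens palmitate, Scd1 and Scd2 place a double bond in saturated chains, and Me1 supplies NADPH. Scd1 is the main desaturase of adult mouse liver, whereas Scd2 is known from brain and from the liver of newborn mice. Srebf1 encodes a membrane-bound transcription factor that insulin raises in liver and that switches on most of the enzymes. Thrsp encodes a small protein induced by thyroid hormone and dietary carbohydrate.

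The study set normal liver, organoids and tumours of mice beside each other. The tissue groups were normal liver (n = 6), PPTR primary tumours (n = 11), PPTR metastases (n = 5, of which 2 were intestinal, 1 from lung, 1 peritoneal and 1 intrahepatic) and PNR primary tumours (n = 9). Tumours named as driven by an organoid line were LCS primary tumours (n = 10), LCS lung metastases (n = 5), LCS peritoneal metastases (n = 3), HBS1 primary tumours (n = 2), HBS1_F2 primary tumours (n = 2) and HBS1_F2 peritoneal metastases (n = 3). The organoid groups were normal organoids (n = 6), LCS organoids (n = 19, 5 lines), HBS organoids (n = 11, 6 lines) and HBS1_F2 organoids (n = 4, 1 line). All samples were untreated, tissue was dissected and organoids were cultured. The labels give no strain, age, sex or genotype, do not expand PPTR, PNR, LCS, HBS or F2, and do not say how a driven tumour was made. They also leave unsaid whether each library is a different animal, and the p-values therefore rest on variation among libraries, some of which may be technical.

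Promoters of 3 members are shown because, pooled over all libraries, the levels of Acly and Fasn were correlated more closely with each other than with Thrsp, as described further on together with the values within groups. Each line gives the 250 bases before the RefSeq start of the gene on GRCm38.p6, read 5′ to 3′ on the strand of the gene, which is the minus strand for all 3. Capitals mark CCAAT on either strand, CANNTG, and GGGCGG on either strand.
Fasn (chr11:120824548-120824797): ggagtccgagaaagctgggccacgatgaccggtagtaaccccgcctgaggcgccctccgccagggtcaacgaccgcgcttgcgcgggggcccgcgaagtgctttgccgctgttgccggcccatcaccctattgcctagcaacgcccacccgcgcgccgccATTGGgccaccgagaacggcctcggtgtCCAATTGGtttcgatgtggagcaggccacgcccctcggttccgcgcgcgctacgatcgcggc
Thrsp (chr7:97417551-97417800): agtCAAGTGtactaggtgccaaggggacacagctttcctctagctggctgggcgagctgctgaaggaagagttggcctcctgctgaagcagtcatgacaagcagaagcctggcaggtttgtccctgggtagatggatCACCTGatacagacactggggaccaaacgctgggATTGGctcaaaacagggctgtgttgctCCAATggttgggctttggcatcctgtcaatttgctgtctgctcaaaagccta
Acly (chr11:100528001-100528250): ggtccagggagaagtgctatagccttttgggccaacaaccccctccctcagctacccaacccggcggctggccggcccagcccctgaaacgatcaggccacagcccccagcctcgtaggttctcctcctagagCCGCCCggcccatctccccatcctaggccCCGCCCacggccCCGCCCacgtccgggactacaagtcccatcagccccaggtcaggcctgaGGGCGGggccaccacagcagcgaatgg
Fasn held 3 CCAAT matches, of which 2 overlap in the palindromic run that also contains its 1 CANNTG match, and no GGGCGG match. Thrsp held 2 CCAAT and 2 CANNTG matches and no GGGCGG match, and Acly held 4 GGGCGG matches and neither of the others. Of 32851 RefSeq promoter windows of the same length, 33.9% held CCAAT, 66.2% held CANNTG and 32.7% held GGGCGG, and a match describes the letters only. RefSeq entries were found for 8 of the 10 members, all but Scd1 and Scd2. On GRCm38 (GENCODE M21), Fasn lies on chromosome 11 from 120805846 to 120824547, Acly on chromosome 11 from 100476353 to 100528000 and Thrsp on chromosome 7 from 97412938 to 97417730. For Thrsp the 2 annotations place the start differently. Most of its window lies inside the GENCODE gene, with both CCAAT matches and the CACCTG match. Scd1 on chromosome 19 from 44394455 to 44407879 and Scd2 on chromosome 19 from 44293674 to 44306864 are close neighbours on the same chromosome.

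Levels are given in CPM, the count of a gene scaled to a common library total, with TMM factors for the composition of the libraries. Library totals ran from 4393199 to 87058563 reads. A difference is called when the adjusted p of edgeR's quasi-likelihood test, with Benjamini-Hochberg adjustment over all genes tested, is under 0.05, and log2 differences carry their standard errors (SE). Where 3 levels stand together for a group, they are those of its lowest, median and highest library. Some features of the libraries moved with the groups. Ribosomal-repeat features took 10.7% to 25.8% of counts in normal livers and 0.925% to 2.12% in PNR tumours. They took 0.210% to 18.3% in PPTR primary tumours and 0.159% to 6.30% in LCS primary tumours. The summed level of 8 hepatocyte markers was 56598 to 94109 CPM in normal livers, 27722 to 121046 CPM in PPTR primary tumours, 10779 to 35395 CPM in PNR tumours, 522 to 41846 CPM in LCS primary tumours and 0.344 to 40.2 CPM in normal organoids, where up to 4 of the 8 had no read in a library. The markers did not move together, and Alb weighed most in the sum in the first 3 of these groups. Its medians were 54604 CPM in normal livers, 69806 CPM in PPTR primary tumours and 10329 CPM in PNR tumours. In the same order, Cps1 stood at 6504, 847 and 579 CPM and Cyp2e1 at 3985, 134 and 4353 CPM. Tat stood at 901, 74.1 and 871 CPM and Apoa1 at 5883, 4175 and 4654 CPM. The Y-linked gene Ddx3y was read at 77.7 CPM or more in every normal organoid and at 0.0403 CPM or less in every LCS primary tumour. The part of Ddx3y and of hepatocyte RNA in the results was not tested, and in bulk tissue fewer cells of a type and less RNA per cell cannot be told apart. Library totals in place of TMM moved the members' log2 differences from normal liver by a median of 0.50 for PPTR tumours, 0.55 for PNR tumours, 1.05 for LCS tumours and 0.91 for normal organoids, and those of LCS from PPTR tumours by 0.60. The share of called genes that were higher was then 90.4% against 55.6% with TMM for PPTR tumours, 85.5% against 55.3% for PNR tumours, 87.9% against 55.3% for LCS tumours, 72.6% against 51.4% for normal organoids and 82.98% against 50.5% for LCS against PPTR tumours. Directions are given on the TMM scale. TMM takes most genes as unchanged, so its near-even shares follow in part from the method and do not show which scale is right.

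PPTR primary tumours held the highest group median of 7 members, Acly, Acaca, Acacb, Fasn, Scd1, Elovl6 and Me1, with TMM scaling, with library totals alone and with the ribosomal-repeat features left out. Of the other 3, Thrsp was highest in normal liver and Srebf1 and Scd2 in HBS1_F2 organoids. On a scale per kilobase of annotated exon, the median level in normal liver ran from 777 CPM per kilobase for Scd1 and 213 for Thrsp through 82.96 for Acly and 77.02 for Fasn down to 10.7 for Acacb and 3.71 for Scd2. In normal organoids the order of the desaturases was turned round, with 144 CPM per kilobase for Scd2 and 5.40 for Scd1.

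The levels in organoids and in the smaller tumour groups overlapped for most members. Srebf1 stood at 118 to 628 CPM in HBS1_F2 organoids, 162 to 381 CPM in normal organoids, 104 to 371 CPM in HBS organoids and 124 to 449.8 CPM in LCS organoids, all ranges overlapping. In LCS lung and peritoneal metastases it stood at 59.8, 65.4, 74.4, 93.5 and 64.004 CPM and 46.05, 99.7 and 89.98 CPM. Acly stood at 152 to 282 CPM in normal, 173 to 549 CPM in LCS and 186 to 410.1 CPM in HBS organoids, which overlapped each other. Its values in the HBS1 primary tumours were 137 and 184 CPM.

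Elovl6 was at 21.6 to 31.2 CPM in normal, 10.2 to 122 CPM in LCS, 10.1 to 72.6 CPM in HBS and 14.7 to 36.7 CPM in HBS1_F2 organoids, with overlap throughout. The HBS1 primary tumours were read at 7.59 and 18.1 CPM and the LCS peritoneal metastases at 13.7, 16.003 and 38.5 CPM. Me1, the NADPH-forming enzyme, was at 63.1 to 174 CPM in normal, 77.2 to 648 CPM in LCS, 68.04 to 435 CPM in HBS and 50.9 to 226 CPM in HBS1_F2 organoids. Scd2 was at 305 to 2619 CPM in LCS, 478 to 1813 CPM in HBS and 485 to 2644 CPM in HBS1_F2 organoids, and at 1471 and 1602 CPM and 2107, 1432 and 937 CPM in HBS1_F2 primary tumours and metastases. None of these Scd2 ranges reached down to the highest normal liver.

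**Figure D1:**
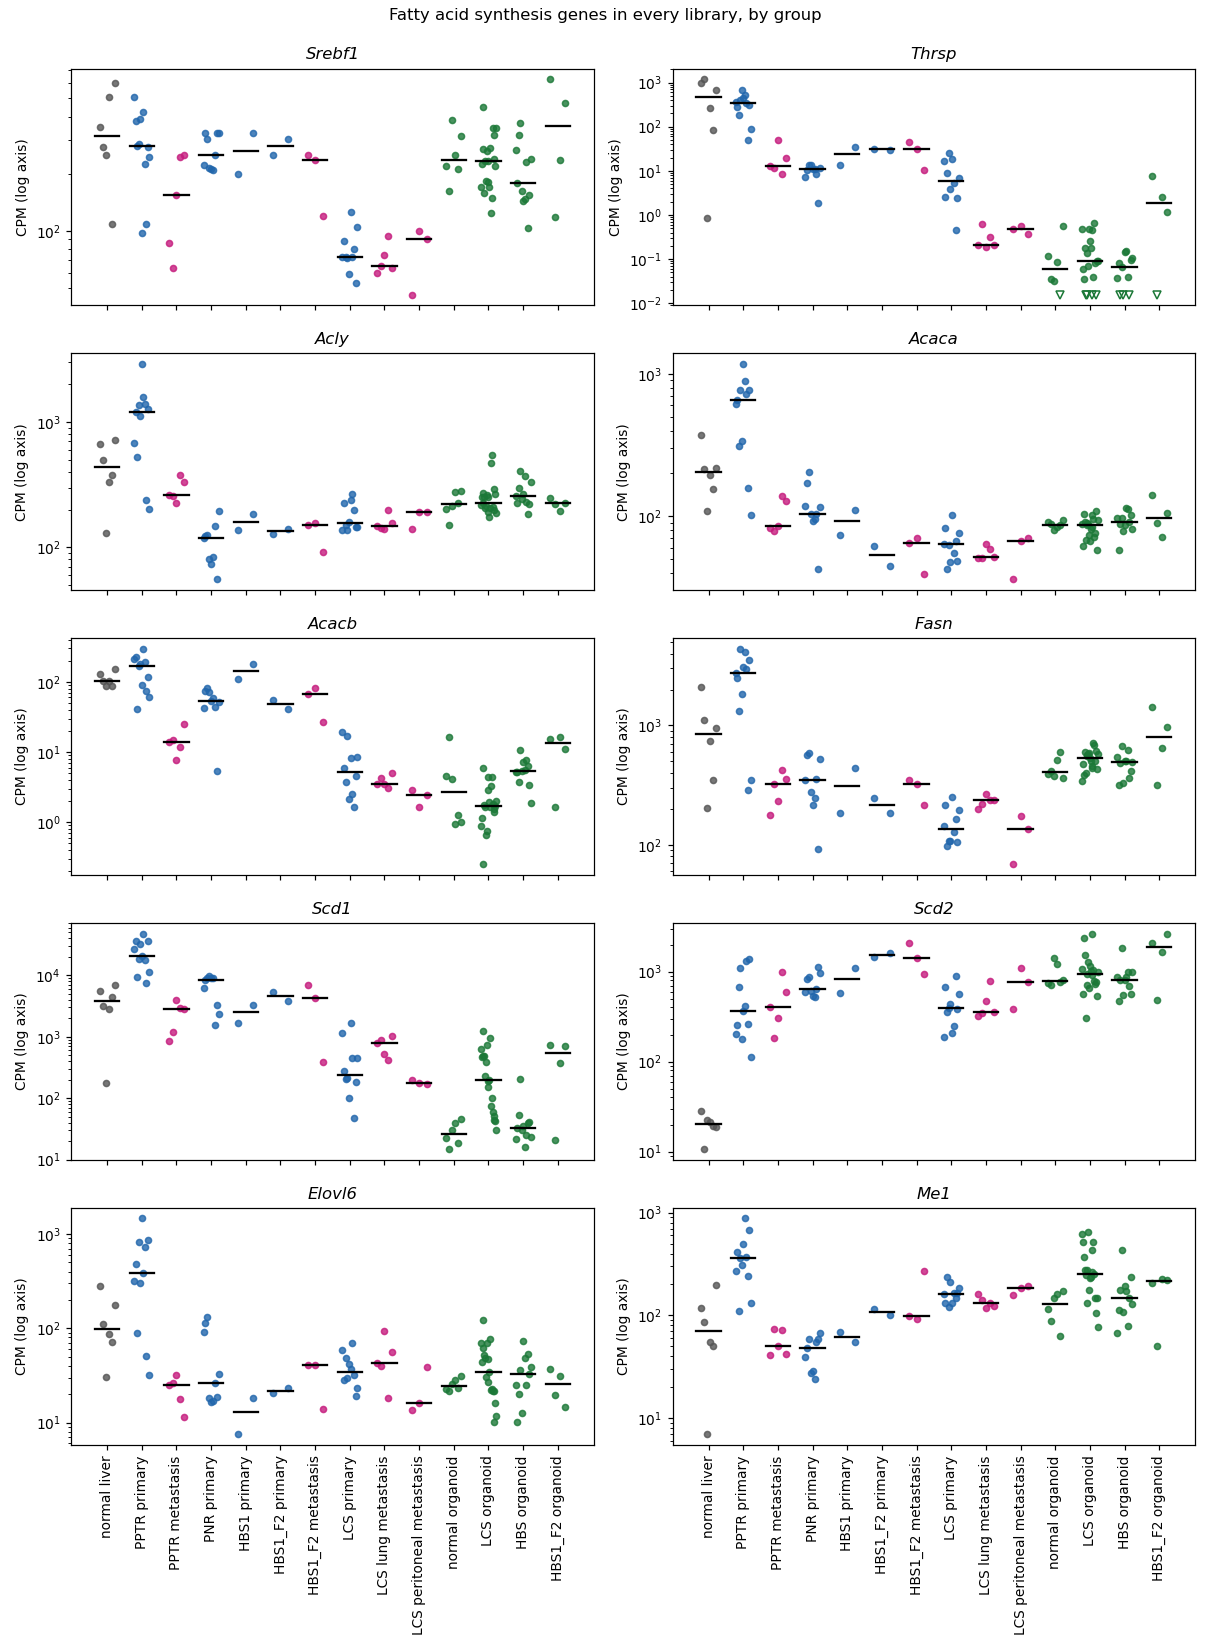
CPM (log axis) of the 10 genes in each of 96 libraries by group; points are libraries, lines are group medians and open triangles mark libraries with no read. PPTR primary tumours carry the highest medians of 7 genes, Scd2 has a median of 20.3 CPM in normal liver against medians of 360.1 CPM or more in every other group, and Thrsp is near 0 in most organoids.

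The 11 PPTR primary tumours were first set against the 6 normal livers. Acaca, Scd1, Scd2 and Me1 rose, and none of the 10 fell. Scd1 stood at 179, 3802 and 6949 CPM in normal livers and 7551, 20429 and 47605 CPM in PPTR tumours, so that every tumour lay above every liver. The log2 difference was 2.46 ± 0.58, a 5.49-fold rise (adjusted p = 0.00435). In PPTR tumour 7, Scd1 alone took 3.84% of all counts. Scd2 stood at 10.7, 20.3 and 28.4 CPM in livers and 112, 367 and 1386 CPM in tumours, also without overlap, and differed by 4.74 ± 0.66 on the log2 scale (adjusted p = 8.26e-05).

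The 2 other called members overlapped between the groups. Acaca was read at 109, 205 and 372 CPM in normal livers and 101, 657 and 1173 CPM in PPTR tumours (log2 difference 1.35 ± 0.44, adjusted p = 0.0284). Me1 was read at 7.04, 70.5 and 199 CPM and 110.3, 362 and 878 CPM (log2 difference 2.03 ± 0.54, adjusted p = 0.00905). Fasn had a higher median in the tumours, 286, 2732 and 4376 CPM against 204, 843 and 2092 CPM, but tumours 9 and 11 lay at 286 and 346 CPM, and the difference of 1.29 ± 0.57 was not called (adjusted p = 0.0932). Acly differed by 1.18 ± 0.50 (adjusted p = 0.0788) and Elovl6 by 1.87 ± 0.71 (adjusted p = 0.0534), with the same tumours lowest. The regulators were not called, with log2 differences of -0.40 ± 0.34 for Srebf1, which was 0.02 with library totals, and -0.84 ± 0.73 for Thrsp, and Acacb differed by 0.28 ± 0.33.

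In all, 4 of 10 members were called, against 31.1% of the 15305 genes tested, and the members' median log2 difference was 1.32 against 0.03 over all genes. Acly, Fasn and Elovl6 joined the calls within the libraries whose identifiers fall in the number block that holds all normal livers, at 1.41 (adjusted p = 0.0179), 1.51 (adjusted p = 0.0217) and 2.06 (adjusted p = 0.0159), where Scd1 differed by 2.56 and Scd2 by 4.74. The same 3 were called with library totals (adjusted p = 0.0128, 0.0220 and 0.0154) and by DESeq2. With a covariate for the ribosomal-repeat share, Scd2 alone was called, with differences of 2.02 for Scd1, 1.55 for Acaca, 1.55 for Me1 and 1.61 for Fasn at wider SEs. Without normal liver 2, 3, 4, 5 or 6 the adjusted p of Acaca lay between 0.0515 and 0.0615. Acly was called without PPTR tumour 9 or 11, Fasn without PPTR tumour 9 or normal liver 1, and Elovl6 without PPTR tumour 3, 9 or 11 or normal liver 1, at adjusted p values from 0.0275 to 0.0415.

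Around the members, genes that supply carbon and NADPH gave 6 higher and 0 lower of 14 tested, with a median log2 difference of 0.68 against 0.03 over all genes. Pgd, a NADPH-forming enzyme of the pentose phosphate pathway, stood at 171 against 35.3 CPM on average (log2 difference 2.16 ± 0.34, adjusted p = 0.000239). Elongation and desaturation genes gave 4 higher and 1 lower of 12 tested, among them the elongase Elovl7 at 3.24 ± 0.64 (adjusted p = 0.00138) and the elongase Elovl3 at -3.67 ± 1.31 (adjusted p = 0.0409). Of the genes of activation and glycerolipid synthesis, 5 higher and 1 lower of 14 tested were called, with Mogat1, a monoacylglycerol acyltransferase, at 34.9 against 1.58 CPM (log2 difference 4.36 ± 0.61, adjusted p = 8.90e-05). Genes of fatty acid oxidation gave 2 higher and 3 lower of 16 tested, and regulators 2 higher and 5 lower of 18 tested. For scale, 17.3% of all genes tested were called higher and 13.8% lower.

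PNR primary tumours were compared with the same 6 livers. Scd2 rose and 6 members fell, Thrsp, Acly, Acaca, Acacb, Fasn and Elovl6. Thrsp stood at 0.860, 466 and 1183 CPM in normal livers and 1.86, 11.2 and 13.8 CPM in PNR tumours, with overlap only through normal liver 3 at 0.860 CPM. Its log2 difference was -5.90 ± 0.88 (adjusted p = 9.57e-05). Acly fell from 130.1, 438 and 714 CPM to 55.4, 119 and 194 CPM (log2 difference -2.16 ± 0.33, adjusted p = 0.000121). Acacb fell from 87.6, 103 and 155 CPM to 5.34, 53.1 and 82.8 CPM, without overlap (log2 difference -1.19 ± 0.36, adjusted p = 0.0125).

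The other 3 falls in PNR tumours were also called. Acaca differed by -1.01 ± 0.29 (adjusted p = 0.00994), Fasn by -1.49 ± 0.45 (adjusted p = 0.0130) and Elovl6 by -1.43 ± 0.57 (adjusted p = 0.0475). Scd2 rose without overlap, from 10.7, 20.3 and 28.4 CPM to 524, 645 and 1135 CPM (log2 difference 5.09 ± 0.28, adjusted p = 1.49e-08). Scd1 differed by 0.61 ± 0.57, Srebf1 by -0.51 ± 0.27 (0.02 with library totals) and Me1 by -1.04 ± 0.45, and none of these was called. The count of 7 of 10 compares with 47.7% of all genes tested, and the members' median was -1.11 against 0.11.

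Several of the smaller calls against the livers rest on 1 library or on the scaling. Without normal liver 1 the adjusted p was 0.0636 for Fasn and 0.172 for Elovl6, and Elovl6 was also lost without liver 2, 4, 5 or 6, at adjusted p values of 0.0517 to 0.0905. Me1 was called as lower without liver 3 (adjusted p = 0.00520) and Srebf1 without liver 5 (adjusted p = 0.0213). With library totals in place of TMM, 3 members were called, Acly and Thrsp lower and Scd2 higher. Some PNR libraries matched each other closely, namely tumours 2 and 3, 4 to 6, and 7 and 9. The SD of the log2 ratio over genes ran from 0.193 for tumours 5 and 6 to 0.293 for tumours 7 and 9. With each of these sets summed, Fasn at -1.52 and Elovl6 at -1.30 were not called (adjusted p = 0.0575 and 0.118). Regulators gave 4 higher and 8 lower of 18 tested, with Srebf2, the regulator of cholesterol synthesis, at 1.44 ± 0.19 (adjusted p = 4.03e-05) and Insig1, which holds the Srebf precursors back in the membrane, at -1.38 ± 0.40 (adjusted p = 0.0105). Oxidation genes gave 2 higher and 10 lower of 17 tested, with Pdk4, a brake on the use of pyruvate, at 3.35 ± 0.47 (adjusted p = 5.93e-05). Of all genes tested, 26.4% were called higher and 21.3% lower.

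LCS primary tumours held the lowest median of the 5 primary tumour groups for Srebf1, Thrsp, Acacb, Fasn and Scd1. Against normal liver 8 fell and Scd2 rose, 9 of 10 called against 63.4% of all genes, with a median log2 difference of -2.08 against 0.13. Acacb was read at 87.6, 103 and 155 CPM in livers and 1.65, 5.24 and 19.2 CPM in LCS tumours, without overlap (log2 difference -4.08 ± 0.48, adjusted p = 2.25e-06). Scd1 stood at 48.1, 242 and 1653 CPM in LCS tumours (log2 difference -3.22 ± 0.72, adjusted p = 0.00094) and overlapped the livers through liver 3 at 179 CPM. Thrsp stood at 0.462, 6.01 and 25.6 CPM and overlapped the same liver (log2 difference -6.05 ± 1.005, adjusted p = 6.79e-05).

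Srebf1 itself fell in LCS tumours, to 53.2, 72.8 and 126 CPM from 109, 314 and 604 CPM (log2 difference -2.28 ± 0.28, adjusted p = 2.86e-06). Fasn differed by -2.77 ± 0.39 (adjusted p = 1.35e-05), Acaca by -1.88 ± 0.24 (adjusted p = 4.37e-06), Elovl6 by -1.88 ± 0.38 (adjusted p = 0.000376) and Acly by -1.51 ± 0.28 (adjusted p = 0.000216). Scd2 again rose without overlap, to 188, 391 and 888 CPM (log2 difference 4.27 ± 0.39, adjusted p = 1.67e-07). Me1 differed by 0.79 ± 0.43 and was not called; without liver 6 it was called as higher, at 1.20 (adjusted p = 0.0229).

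With library totals in place of TMM, Acly at -0.40 and Elovl6 at -0.80 lost their calls (adjusted p = 0.197 and 0.0697), and Me1 gained one as higher, at 1.90 (adjusted p = 0.000849). Within the identifier block of the livers, which holds 7 of the 10 LCS tumours, the same comparison gave -2.78 for Fasn, -2.93 for Scd1, -3.88 for Acacb and 4.001 for Scd2. With a covariate for the ribosomal-repeat share, Srebf1, Acacb and Scd2 kept a call and the count fell to 3. The share did not overlap between LCS tumours (0.159% to 6.30%) and livers (10.7% to 25.8%), so this fit can hardly separate it from the group. The members that lost their call had wider SEs and differences of -2.63 for Fasn, -3.65 for Scd1, -1.69 for Acly, -2.07 for Elovl6, -1.56 for Acaca and -4.39 for Thrsp. In the wider pathway, oxidation genes gave 0 higher and 15 lower of 16 tested, elongation and desaturation genes 3 higher and 9 lower of 12 tested, and genes of activation and glycerolipid synthesis 1 higher and 8 lower of 12 tested. Calls over all genes tested were 35.1% higher and 28.3% lower. Among the regulators (3 higher and 9 lower of 18 tested), Mlxipl, a carbohydrate-responsive transcription factor of lipogenesis, stood at 8.05 against 79.04 CPM (log2 difference -3.46 ± 0.32, adjusted p = 1.83e-07). The 3 comparisons with normal liver share the same 6 libraries, so their values are given side by side and not counted against each other.

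**Figure D2:**
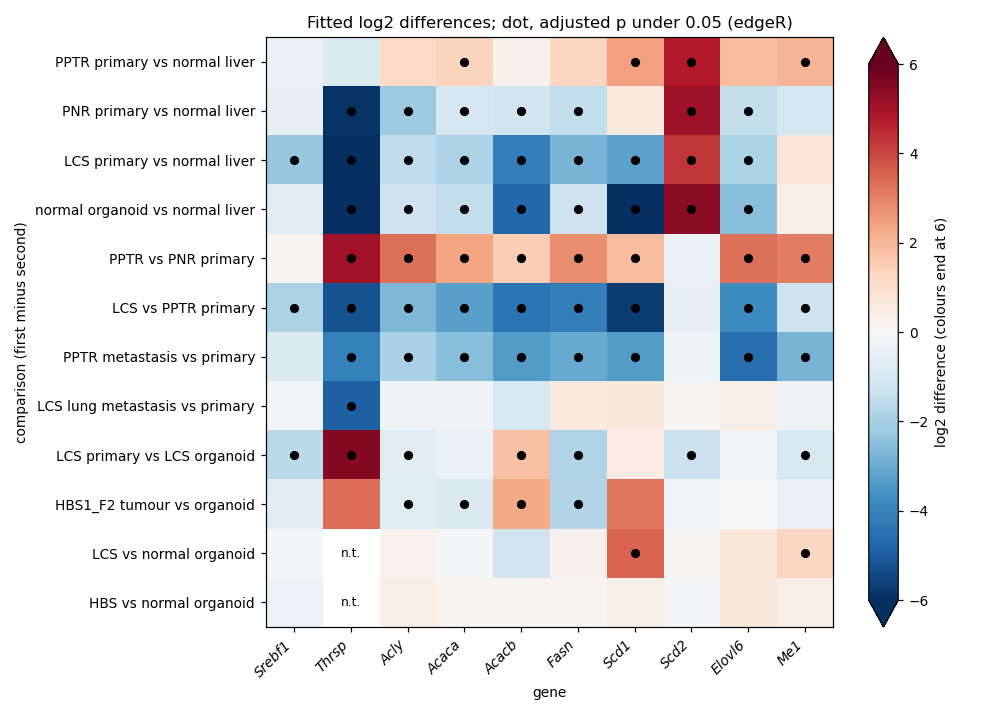
Fitted log2 differences (colour, first group minus second) of the 10 genes in 12 comparisons; a dot marks adjusted p under 0.05 and n.t. a gene not tested for low counts. Against normal liver, Scd2 is higher in all 4 rows, and the other called members are higher in PPTR tumours and lower in PNR tumours, LCS tumours and normal organoids.

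The primary tumours were also compared with each other. In PPTR tumours 8 members were higher than in PNR tumours and none was lower, against 50.7% of all genes called; the members' median was 2.56 against -0.03. Acly did not overlap between 201, 1192 and 2895 CPM in PPTR and 55.4, 119 and 194 CPM in PNR tumours (log2 difference 3.32 ± 0.42, adjusted p = 3.30e-06). Me1 did not overlap either, at 110.3, 362 and 878 CPM and 24.1, 47.7 and 67.4 CPM (log2 difference 3.05 ± 0.34, adjusted p = 8.51e-07). Thrsp showed the largest of the 10 differences, 5.05 ± 0.45 (adjusted p = 4.38e-08), with 49.96, 344 and 684 CPM in PPTR tumours. Fasn differed by 2.78 ± 0.46 (adjusted p = 6.14e-05) and Elovl6 by 3.29 ± 0.67 (adjusted p = 0.000446), with overlap through PPTR tumours 9 and 11 for both and tumour 3 for Elovl6. Acaca differed by 2.35 ± 0.38, Scd1 by 1.85 ± 0.39 and Acacb by 1.47 ± 0.38, all called, while Srebf1 at 0.10 ± 0.24 (adjusted p = 0.747) and Scd2 at -0.38 ± 0.42 (adjusted p = 0.472) were not.

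In the wider pathway, carbon and NADPH genes gave 9 higher and 1 lower of 15 tested, with Pklr, the liver pyruvate kinase, at 284 against 28.04 CPM (log2 difference 3.33 ± 0.39, adjusted p = 1.12e-06). Activation and glycerolipid genes gave 8 higher and 0 lower of 14 tested, with Mogat1 at 34.9 against 0.150 CPM (log2 difference 7.80 ± 0.63, adjusted p = 1.26e-08). Elongation and desaturation genes gave 7 higher and 0 lower of 11 tested, with Elovl5, an elongase of polyunsaturated chains, at 1325 against 301 CPM (log2 difference 2.09 ± 0.46, adjusted p = 0.000945). Srebf2 went the other way, at -1.35 ± 0.15 (adjusted p = 8.86e-07), and regulators as a list gave 5 higher and 4 lower of 18 tested. For scale, 24.2% of all genes tested were called higher and 26.5% lower.

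LCS primary tumours were lower than PPTR primary tumours for 9 members, all but Scd2, against 56.6% of all genes. The members' median log2 difference was -3.52 against 0.02. Fasn stood at 97.8, 135 and 252 CPM in LCS and 286, 2732 and 4376 CPM in PPTR tumours, with no overlap (log2 difference -4.09 ± 0.44, adjusted p = 1.17e-07). Scd1, Acacb and Thrsp did not overlap either and differed by -5.70 ± 0.64, -4.39 ± 0.49 and -5.23 ± 0.63 (adjusted p = 2.12e-07, 2.39e-07 and 5.61e-07). Srebf1 differed by -1.90 ± 0.25 (adjusted p = 1.48e-06), and Acly, Acaca, Elovl6 and Me1 differed by -2.71 ± 0.37, -3.26 ± 0.36, -3.78 ± 0.56 and -1.26 ± 0.28. Scd2 differed by -0.50 ± 0.44 (adjusted p = 0.346), and by 0.16 with library totals, where Me1 at -0.66 was no longer called (adjusted p = 0.0504). Within the shared identifier block the values were -4.32 for Fasn, -5.53 for Scd1 and -2.03 for Srebf1, and with a covariate for the ribosomal-repeat share all 9 calls were kept. Regulators gave 2 higher and 9 lower of 18 tested and oxidation genes 0 higher and 15 lower of 16 tested. Of all genes tested, 28.6% were called higher and 28.04% lower.

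PPTR metastases were compared with PPTR primary tumours to follow the programme away from the primary site. Of the 10 members 8 fell and Srebf1 and Scd2 were not called, against 31.7% of all genes; the members' median was -2.92 against -0.02. Scd1 was read at 847, 1195, 4034, 2891 and 2814 CPM in metastases 1 (intestine), 2 (lung), 3 (intestine), 4 (peritoneal) and 5 (intrahepatic), all below the lowest primary tumour at 7551 CPM (log2 difference -3.34 ± 0.54, adjusted p = 0.000202). Elovl6 stood at 24.95, 26.3, 31.7, 17.98 and 11.5 CPM against 32.1, 386 and 1461 CPM in primary tumours, without overlap (log2 difference -4.52 ± 0.85, adjusted p = 0.000768). Fasn stood at 178, 324, 231, 422 and 358 CPM, which overlaps primary tumours 9 and 11 (log2 difference -3.05 ± 0.60, adjusted p = 0.00107).

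Acacb at 13.8, 14.6, 7.60, 11.7 and 25.3 CPM and Me1 at 41.4, 73.3, 50.6, 72.03 and 41.9 CPM lay below every primary tumour (log2 differences -3.37 ± 0.47 and -2.79 ± 0.44, adjusted p = 5.44e-05 and 0.000163). Thrsp differed by -4.04 ± 0.62, Acaca by -2.55 ± 0.50 and Acly by -1.97 ± 0.52 (adjusted p = 0.000122, 0.00104 and 0.00778), and Srebf1 differed by -0.87 ± 0.39 (adjusted p = 0.0960) and Scd2 by -0.27 ± 0.61 (adjusted p = 0.772), which was 0.16 with library totals. The count was 8 without any 1 of the metastases. With the number block of the library identifiers as a term, the same count of 8 was called, all lower, with -2.77 for Fasn, -3.50 for Scd1 and -1.60 for Acly (adjusted p = 0.00432, 0.000507 and 0.0371). Hepatocyte markers summed to 5975 to 37173 CPM in the metastases, below the median of 81983 CPM in the primary tumours, and lung epithelium markers summed to 1446 CPM in the lung metastasis; their part in the falls was not tested. Activation and glycerolipid genes gave 0 higher and 11 lower of 14 tested, carbon and NADPH genes 2 higher and 8 lower of 15 tested and oxidation genes 0 higher and 13 lower of 16 tested, with Acss2, which makes acetyl-CoA from acetate, at 19.4 against 233 CPM (log2 difference -3.58 ± 0.69, adjusted p = 0.000852). Calls over all genes tested were 15.5% higher and 16.3% lower.

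The metastases of LCS tumours were compared with LCS primary tumours in the same way. Thrsp was the only member called in the lung metastases (14.8% of all genes), at 0.212, 0.630, 0.185, 0.317 and 0.208 CPM against 0.462, 6.01 and 25.6 CPM (log2 difference -4.91 ± 0.85, adjusted p = 0.00101). Lung metastases 1 and 2 share an identifier block and matched closely, with an SD of 0.204 of the log2 ratio over genes. They entered the fit as separate libraries. Fasn was read at 200.3, 219.7, 265, 236 and 237 CPM in lung metastases and 97.8, 135 and 252 CPM in primary tumours (log2 difference 0.60 ± 0.23, adjusted p = 0.0792), and Scd1 differed by 0.61 ± 0.60 (adjusted p = 0.518). Lung epithelium markers summed to 700.3 to 1596 CPM in these metastases, with reads of all 4 markers in every library, against 0.362 to 8.28 CPM in the primary tumours, and hepatocyte markers to 256 to 709 CPM against 522 to 41846 CPM; their part was not tested. With the identifier block as a term, the difference of Thrsp was -3.71 and was not called (adjusted p = 0.0805).

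In LCS peritoneal metastases no member was called (0.883% of all genes); 2 members had an unadjusted p under 0.05 and DESeq2 called 1, Thrsp. Thrsp was read at 0.480, 0.549 and 0.376 CPM there (log2 difference -4.33 ± 1.08, adjusted p = 0.0721 in edgeR). Peritoneal metastasis 1 had 4393199 counts, the fewest of all libraries, and 34.9% ribosomal-repeat counts. Lung against peritoneal metastases gave no call either (0.862% of all genes), with 3 members at an unadjusted p under 0.05 and none called by DESeq2. The difference between the models was tested directly, as the change from primary tumour to metastasis in PPTR less that in LCS. On the LCS side, lung and peritoneal metastases were weighted equally, whereas the PPTR metastases came mostly from other sites. The difference was called for 7 members, each with a more negative change in PPTR, against 19.3% of all genes. The values ran from -1.81 ± 0.49 for Acly (adjusted p = 0.00948) to -4.28 ± 0.80 for Elovl6 (adjusted p = 0.00032), with -3.18 ± 0.57 for Fasn (adjusted p = 0.000185), whereas Srebf1, Scd2 and Thrsp were not called at -0.73 ± 0.41, -0.64 ± 0.68 and 0.60 ± 0.81. With the identifier block as a term, 7 members were again called, from -1.93 for Acly to -4.65 for Elovl6. The models started from different levels. LCS primary tumours had lower medians than PPTR metastases in Fasn (135 against 324 CPM), Scd1 (242 against 2814 CPM), Acacb, Acly and Acaca. Their medians were higher in Elovl6 (34.1 against 24.95 CPM) and Me1 (163 against 50.6 CPM). The part of the starting level was not tested.

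Normal organoids differed from normal liver in 8 members, 7 lower and Scd2 higher, against 74.1% of all genes, and the members' median log2 difference was -1.37 against 0.07. Scd1 stood at 14.9, 26.4 and 46.7 CPM in organoids, below every liver, a difference of -7.28 ± 0.76 (adjusted p = 9.98e-07). Scd2 stood at 708, 789 and 1405 CPM, above every liver (5.35 ± 0.31, adjusted p = 3.24e-09). Thrsp had 22 reads in the 6 organoids together against 33066 in the 6 livers, and its highest organoid level was 0.573 CPM, under that of every liver. Acacb at 0.958, 2.72 and 16.2 CPM and Acaca at 80.1, 87.04 and 93.6 CPM also lay below every liver (-4.70 ± 0.70 and -1.49 ± 0.25, adjusted p = 2.92e-05 and 9.18e-05).

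Among the called members the smallest differences were those of Acly, at -1.23 ± 0.34 (adjusted p = 0.00433), and Fasn, at 365, 404 and 597 CPM and -1.25 ± 0.45 (adjusted p = 0.0213). Fasn was not called without liver 1 (adjusted p = 0.0961). Elovl6 differed by -2.52 ± 0.41 (adjusted p = 7.11e-05), and Srebf1 at -0.64 ± 0.35 (0.25 with library totals) and Me1 at 0.33 ± 0.52 were not called, Srebf1 being called as lower without liver 5 (adjusted p = 0.0288). With library totals in place of TMM, Acly, Acaca and Fasn lost their calls, at -0.28, -0.59 and -0.36, and Me1 gained one, at 1.30. Hepatocyte markers had a median sum of 7.92 CPM in organoids and 82472 CPM in liver, and biliary markers stood at 1879 to 3836 CPM against 44.04 to 165 CPM in liver; their part in the differences was not tested.

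Few members separated the LCS and HBS organoids from normal organoids. LCS organoids, compared as 5 lines, were higher in Scd1 (3.50 ± 0.64, adjusted p = 0.0116) and Me1 (1.31 ± 0.34, adjusted p = 0.0478), 2 of 9 members tested against 5.11% of all genes; Me1 was not called with library totals (adjusted p = 0.0806) or without any 1 of LCS1 to LCS4 (adjusted p 0.0607 to 0.120). Scd1 varied between the lines. It ran at 478 to 1239 CPM in LCS1, 226 to 731 CPM in LCS2, 153 to 973 CPM in LCS3, 60.03 to 101 CPM in LCS4 and 30.6 to 52.01 CPM in LCS5, against 14.9 to 46.7 CPM in normal organoids. LCS1 and LCS2 share an identifier block and overlapped in Scd1, LCS3 and LCS4 share another and did not overlap, and LCS5 lies in a different one, so that its difference from the other lines cannot be told apart from the block. LCS5 also differed in the Y-linked Ddx3y, at 95.03 to 126 CPM against 0.389 CPM or less in LCS1 to LCS4, which cannot be told apart either. Every normal organoid had 77.7 CPM or more of Ddx3y. The X-linked Xist stood at 991, 736 and 362 CPM in normal organoids 1 to 3. In normal organoids 4 to 6, which share an identifier block with no other library, Xist stood at 1.25, 2.60 and 1.55 CPM. This split within the normal organoids cannot be told apart from the block. Hepatocyte markers summed to 0.952 to 1322 CPM in LCS organoids against 0.344 to 40.2 CPM in normal organoids, with Alb at up to 740.0 and 28.1 CPM. Over the 19 LCS organoids, which share lines, Scd1 had a Pearson r of 0.86 with this sum, and its part in the difference was not tested. Fasn showed no such order of the lines, with 344 to 599 CPM in LCS1 and 436 to 612 CPM in LCS5.

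HBS organoids, compared as 6 lines, had no member called against normal organoids (0.0467% of all genes); 1 member had an unadjusted p under 0.05 and DESeq2 called none. Their Scd1 ran at 16.1, 32.4 and 208 CPM (log2 difference 0.36 ± 0.38, adjusted p = 0.787), with HBS organoid 4, labelled HBS1, highest. That library was also the highest HBS organoid in Me1, Acly, Fasn and Acacb. The Y-linked Ddx3y stood at 150 CPM in it and at 0.0363 CPM or less in HBS organoids 2, 3 and 5, also labelled HBS1. All were summed as 1 line by their label, and whether they are the same line was not tested. Against HBS organoids, LCS organoids were higher in Scd1 (3.17 ± 0.67, adjusted p = 0.0337), 1 of 10 members against 3.65% of all genes. This call was lost without LCS1, LCS2 or LCS3 (adjusted p 0.0619 to 0.0835). Acacb at -1.36 ± 0.38 and Me1 at 0.95 ± 0.33 were not called, though Acacb was without LCS4 (adjusted p = 0.0466) and Me1 without LCS5 (adjusted p = 0.0351).

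**Figure D3:**
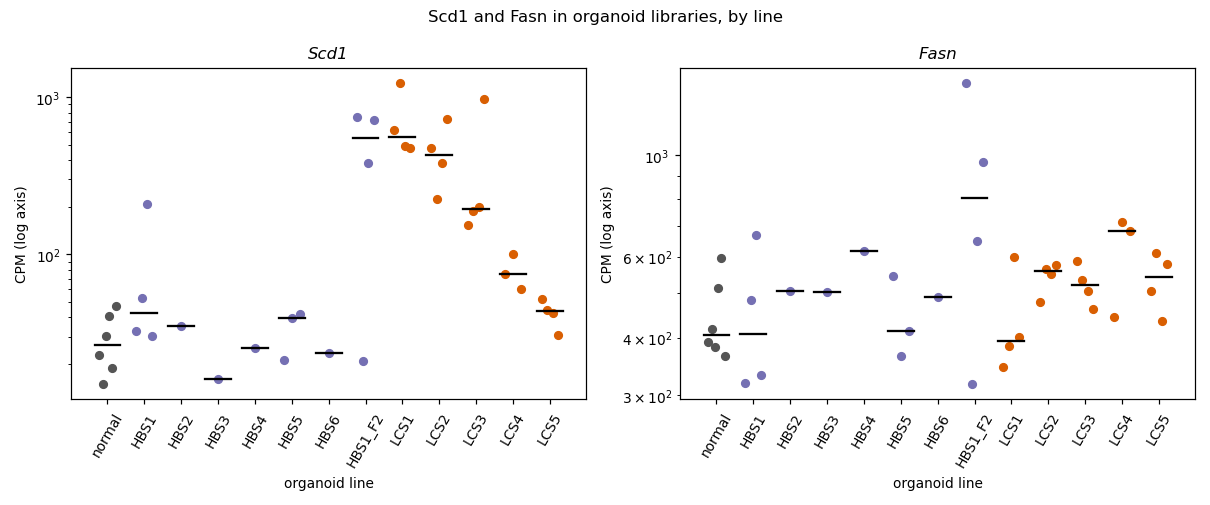
CPM (log axis) of Scd1 and Fasn in each organoid library, grouped by line; lines mark medians. Scd1 runs from 14.9 CPM in a normal organoid to 1239 CPM in LCS1, whereas most Fasn values lie within 319 to 715 CPM, 2 HBS1_F2 libraries lie above and HBS1_F2 organoid 2 lies at 316 CPM.

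Tumours were then set against the organoids whose names they carry. LCS primary tumours, compared with the 5 LCS lines, were lower in 5 members and higher in 2, against 60.5% of all genes. Fasn did not overlap between 97.8, 135 and 252 CPM in tumours and 344, 534 and 715 CPM in organoids (log2 difference -1.86 ± 0.22, adjusted p = 4.93e-06). The lower members also included Srebf1 at -1.62 ± 0.17 (adjusted p = 1.76e-06), Scd2 at -1.28 ± 0.32 (adjusted p = 0.00278), Me1 at -0.94 ± 0.24 (adjusted p = 0.00301) and Acly at -0.62 ± 0.19 (adjusted p = 0.0121). The 2 higher members were Thrsp at 5.52 ± 0.97 (adjusted p = 0.000176) and Acacb at 1.74 ± 0.60 (adjusted p = 0.0196). Acaca at -0.40 ± 0.18 and Scd1 at 0.49 ± 0.78 were not called. With library totals, Me1 at -0.61 and Acly at -0.26 were not called (adjusted p = 0.0640 and 0.342), and with TMM Acly lost its call without LCS4 (adjusted p = 0.0595).

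HBS1_F2 tumours, 2 primary and 3 peritoneal, were set against the 4 HBS1_F2 organoids. Fasn, Acaca and Acly were lower and Acacb higher, 4 of 10 against 36.5% of all genes. Fasn was read at 245 and 184 CPM in the primary tumours, 348, 326 and 216 CPM in the metastases and 1436, 316, 648 and 964 CPM in the organoids (log2 difference -1.74 ± 0.45, adjusted p = 0.0194), with overlap through organoid 2. Acacb was read at 55.96 and 40.4 CPM, 67.7, 80.4 and 26.7 CPM and 15.3, 1.66, 16.1 and 11.2 CPM in the same order, without overlap (log2 difference 2.25 ± 0.65, adjusted p = 0.0290). Acly differed by -0.72 ± 0.21 (adjusted p = 0.0285) and Acaca by -0.85 ± 0.28 (adjusted p = 0.0426), also without overlap.

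Scd1 was read at 5300.0 and 3881 CPM in HBS1_F2 primary tumours, 7055, 4250.2 and 391 CPM in the metastases and 746, 20.9, 379 and 717 CPM in the organoids, and its difference of 3.16 ± 1.10 was not called (adjusted p = 0.0517). Thrsp differed by 3.33 ± 1.25 (adjusted p = 0.0663). Without either primary tumour all 4 calls were lost. Acly was also lost without metastasis 1 or organoid 1 or 4, Acaca without metastasis 1, 2 or 3 or organoid 1 or 4, and Acacb without metastasis 1 or 2 or organoid 4. Scd1 was called without metastasis 3 or organoid 2 (adjusted p = 0.0294 and 0.0282), and Thrsp without organoid 1 or 2. A direct test of whether the tumour-organoid difference was the same in LCS and HBS1_F2 called no member (11.3% of all genes); 1 had an unadjusted p under 0.05 and DESeq2 called none. Hepatocyte markers summed to 10588 to 14964 CPM in the primary tumours and 2.17 to 1413 CPM in the organoids, and the part of this was not tested.

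HBS organoids were also compared with PNR primary tumours. 5 members were called against 66.1% of all genes. Scd1 at 16.1, 32.4 and 208 CPM lay below every PNR tumour (-7.33 ± 0.64, adjusted p = 9.98e-08), as did Thrsp, with 30 reads in 11 organoids (-6.67 ± 0.52, adjusted p = 3.42e-08); Acacb was lower too (-3.17 ± 0.46, adjusted p = 1.78e-05). Me1 at 68.04, 149 and 435 CPM lay above every PNR tumour (1.95 ± 0.26, adjusted p = 7.60e-06) and Acly was higher (1.47 ± 0.23, adjusted p = 4.32e-05). Fasn at 0.61 ± 0.30 and Scd2 at 0.32 ± 0.20 were not called, though Fasn was as higher with library totals (adjusted p = 0.0367).

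Primary tumours of the HBS1 lineage, 2 named HBS1 and 2 named HBS1_F2, were compared with PNR tumours. Thrsp was the 1 member called (8.92% of all genes), at 13.8 and 34.6 CPM in HBS1 and 30.7 and 30.3 CPM in HBS1_F2 primary tumours against 1.86, 11.2 and 13.8 CPM in PNR tumours (log2 difference 1.46 ± 0.38, adjusted p = 0.0350). HBS1 tumour 1 lay just above the highest PNR tumour, and the call was lost without any 1 of the 4 tumours (adjusted p 0.0593 to 0.170) and when closely matching PNR libraries were summed (adjusted p = 0.126). With the identifier block as a term, no member was called, Thrsp differed by 1.502 (adjusted p = 0.786) and Scd1 turned to 0.79 (adjusted p = 0.959). Scd1 differed by -0.92 ± 0.49 (adjusted p = 0.222). HBS1_F2 metastases and the 4 primary tumours had no member called in edgeR (0% of all genes), with 1 at an unadjusted p under 0.05 and none called by DESeq2. HBS1_F2 organoids and HBS1 organoids had none either (13.7% of all genes), with 1 at an unadjusted p under 0.05 and 1 called by DESeq2, Scd1, whose edgeR difference was 2.53 ± 1.03 (adjusted p = 0.124). The HBS1 side included HBS organoid 4, which differed from the other HBS1 libraries in Ddx3y. Without HBS1_F2 organoid 2, at 20.9 CPM of Scd1, 4 members were called there, Acacb, Fasn, Scd1 and Thrsp.

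The balance of the desaturase paralogues differed between liver and organoids. Reads may be shared between Scd1, Scd2, Scd3 and Scd4 and between Acaca and Acacb, so shares carry that uncertainty. Of the reads of Scd1 and Scd2 together, Scd2 took 0.268% to 11.1% in normal livers and 0.564% to 6.97% in PPTR primary tumours. The share was 5.46% to 29.7% in PNR tumours, 7.01% to 32.5% in PPTR metastases and 11.1% to 94.9% in LCS primary tumours. In organoids it was 94.5% to 97.9% for normal, 89.7% to 98.2% for HBS, 38.96% to 97.02% for LCS and 73.5% to 95.9% for HBS1_F2. The highest value in normal liver belonged to liver 3, where Scd1 was low and Scd2, at 22.4 CPM, was not.

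Acacb took 26.01% to 44.7% of the reads of both carboxylases in normal livers. Its share was 59.8% to 61.8% in HBS1 and 47.5% to 47.8% in HBS1_F2 primary tumours, and both ranges lay above every normal liver. In HBS1_F2 metastases it was 40.5% to 53.4% and in PPTR primary tumours 7.05% to 37.1%. In organoids it lay at 0.242% to 6.18% for LCS, 2.31% to 9.83% for HBS and 1.08% to 15.6% for normal.

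**Figure D4:**
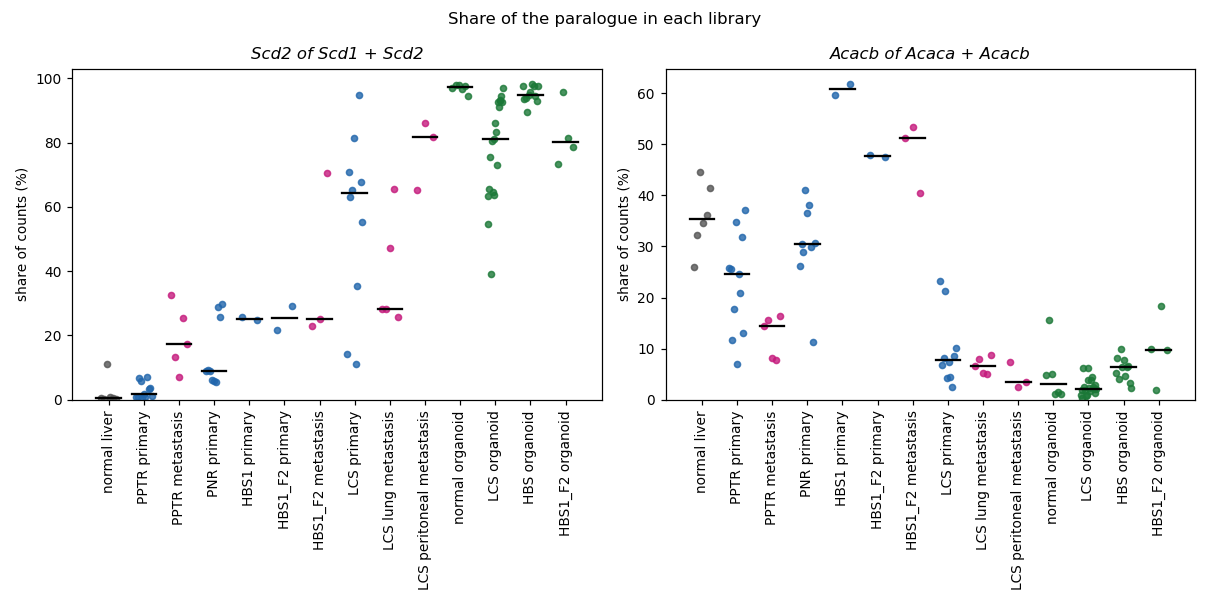
Share of counts (%) taken by Scd2 among Scd1 and Scd2 (left) and by Acacb among Acaca and Acacb (right), one point per library, lines at group medians. Scd2 has a median share of 0.472% in normal liver and 97.3% in normal organoids, and Acacb one of 35.4% and 3.12%.

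Across the 96 libraries the members' levels were correlated with each other, as a description, since libraries share groups, depth and scaling. On log2(CPM + 1), Acaca and Fasn had a Pearson r of 0.86, Acly and Acaca 0.82, Acly and Fasn 0.81 and Acaca and Elovl6 0.81. Acacb, Scd1 and Thrsp were close to each other as well, with 0.86 between Acacb and Thrsp, 0.82 between Scd1 and Thrsp and 0.78 between Acacb and Scd1. Scd2 stood apart, with r from -0.48 with Thrsp to 0.28 with Me1. Srebf1 had its highest r with Fasn, 0.63. The pooled r of Thrsp was 0.52 with Acly and 0.47 with Fasn, but within groups it could be close to both, at 0.87 and 0.89 over the 11 PPTR primary tumours and 0.94 and 0.91 over the 6 normal livers. Acly and Fasn had an r of 0.91 within PPTR primary tumours, 0.12 within LCS organoids and 0.15 within normal organoids.

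The summed hepatocyte level was set beside the members in the same way. It adds CPM, so the highest marker counts most, which by median was Alb in most tissue groups. In LCS lung metastases Apoa1 was higher, with a median of 385 CPM against 10.4 CPM for Alb. Since the markers did not move together between groups, the r values describe this sum and not each marker. Over all 96 libraries the r with the summed hepatocyte level was 0.87 for Scd1, 0.82 for Thrsp and 0.78 for Acacb, and 0.13 for Acly and 0.10 for Fasn. Over the 56 tissue libraries alone it was 0.60 for Fasn and 0.44 for Acly, beside 0.71 for Scd1, 0.81 for Thrsp and 0.82 for Acacb. Over the 40 organoids it was 0.25 for Fasn and -0.27 for Acly. Within the 10 LCS primary tumours it was 0.96 for Thrsp and 0.81 for Acacb, and 0.02 for Fasn. LCS tumours 1, 4 and 6, with 16.8, 25.6 and 18.1 CPM of Thrsp, had hepatocyte sums of 16536, 41846 and 31482 CPM, and tumour 8, with 0.462 CPM, had 522 CPM. Within the 9 PNR tumours r was 0.97 for Acacb, 0.94 for Thrsp, 0.93 for Acaca and 0.85 for Fasn. Tumour 8 was lowest in the hepatocyte sum and in each of these members. Several of these PNR libraries matched each other closely, so they are not 9 independent points. Within the 11 PPTR primary tumours r was -0.12 for Acacb, 0.00 for Thrsp, -0.21 for Acaca and -0.10 for Fasn.

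**Figure D5:**
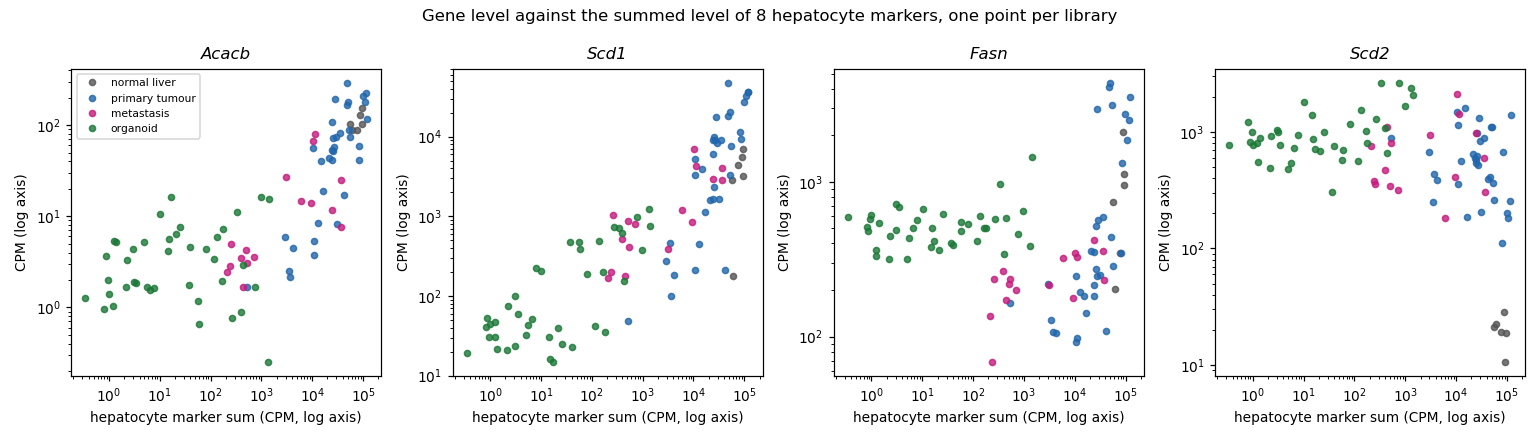
CPM (log axis) of Acacb, Scd1, Fasn and Scd2 against the summed CPM of 8 hepatocyte markers (log axis) in 96 libraries, coloured by kind of sample. Alb is the highest of the 8 by median in most tissue groups. Over all libraries Acacb and Scd1 rise with the hepatocyte sum (r = 0.78 and 0.87). Fasn has an r of 0.10 over all libraries and 0.60 over the 56 tissue libraries. The 6 normal livers lie below the other libraries in Scd2.

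Among 11002 genes with a mean of at least 5 CPM, the genes whose level followed each member most closely were named by Pearson r over the 96 libraries. For Scd1 they were Scd3 (0.94), Aldh1a1 (0.94) and Gpam (0.93), and reads shared between Scd1 and Scd3 cannot be told apart from a shared course. Acly was followed by Acaca, Fasn and Elovl6, and Fasn by Acaca (0.86), Acly and Fam73b (0.74). For Thrsp they were Cyp2a12 (0.94), Keg1 (0.93) and Slc30a10 (0.93), for Acacb Slc23a1 (0.93), Gckr (0.92) and Bbox1 (0.92), and for Me1 Tkt (0.71), Aacs (0.66) and Pgd (0.63). Elovl6 was followed by Acsl5 (0.83), Pklr (0.81) and Acaca. The values for Srebf1 were lower, with Lmbrd1 at 0.76 first, and Scd2 was followed by Npdc1 (0.82).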

How the data were processed

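RNA was sequenced from 96 libraries of mouse tissue and organoids, prepared as stranded total RNA after extraction with a column kit, per the labels' protocols. The authors deposited 1 table of raw read counts per gene symbol for each library, and the counts were used as deposited. STAR, BWA, HTSeq and the mouse build mm9 are named in the submitters' processing notes, with no versions. The 5 entries for reads given to no gene were left out of library totals. Gene positions come from GENCODE M21 on GRCm38 and promoter sequences from RefSeq on GRCm38.p6, not from the build of the counts.

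Differences were fitted with edgeR 4.0.16 in R 4.3.3 (filterByExpr with a minimum count of 10, TMM scaling, quasi-likelihood test), using the libraries of the groups compared; LCS and HBS organoids were summed by line. The Benjamini-Hochberg adjustment covered all genes tested, with a threshold of 0.05. DESeq2 1.42.0 was an alternative. On counts simulated for PPTR primary tumours against normal liver over 15305 genes, 45 of 50 genes changed by 2 on the log2 scale were called in each direction, 28 of 50 raised by 1 and 17 of 50 lowered by 1, with 3 false calls. The members, pathway lists and markers were chosen with earlier results of these data known. In each pathway list, genes were named from the 3 with the largest called differences whose mean in the higher group reached 5 CPM, and some of these are not printed. Alternatives were other scalings and tools, no filter, a ribosomal-repeat covariate, identifier blocks, and leaving out libraries.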

Additional observations from a re-analysis of the deposited data

Results flagged for a closer look

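Among 70 checks of a single library against the rest of its group (groups of 4 to 10), 5 stood apart by Dixon's criterion at the 95% level. Chance flags about 1 in 20 of such checks, so a number of flags near 5 can arise by chance. Acly reached 197 CPM in LCS lung metastasis 4, with the nearest library at 156 CPM. Acacb reached 16.2 CPM in normal organoid 2, with the nearest at 4.6004 CPM. Normal organoids 4 to 6, which share an identifier block, stood at 0.958, 1.26 and 1.02 CPM of Acacb, below normal organoids 1 to 3. Me1 stood at 50.9 CPM in HBS1_F2 organoid 2, below the nearest at 208 CPM. This library also had the lowest Scd1, Fasn, Acacb and Thrsp of the 4 HBS1_F2 organoids. Thrsp stood at 50.9 CPM in PPTR metastasis 3, from the intestine, with the nearest at 19.4 CPM, and at 0.573 CPM in normal organoid 6, with the nearest at 0.118 CPM.

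The change from primary tumour to metastasis differed between PPTR and LCS tumours for 7 members, by edgeR's test of the difference itself, and each changed more negatively in PPTR. Each of these members also had a lower median in LCS than in PPTR primary tumours, and the part of this starting level was not tested. The differences on the log2 scale were -1.81 for Acly (adjusted p = 0.00948), -2.31 for Acaca (adjusted p = 0.000872), -2.02 for Acacb (adjusted p = 0.0251) and -3.18 for Fasn (adjusted p = 0.000185). They were -2.96 for Scd1 (adjusted p = 0.00736), -4.28 for Elovl6 (adjusted p = 0.00032) and -2.67 for Me1 (adjusted p = 3.81e-05). Hepatocyte markers summed to less in metastases than in primary tumours in both models by their medians; the part of this was not tested.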

How the results depend on the processing

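Each named difference was recomputed under other scalings, tools, filters and sets of libraries. Of 1209 values of the members, 1084 kept their direction and their side of the threshold, 43 gained and 74 lost a call, and 8 turned sign; of 2044 values of other named genes, 1811 kept both, 232 lost a call and 1 turned. With library totals, Srebf1 was 0.015 in PPTR and 0.017 in PNR tumours against normal liver, 0.25 in normal organoids against liver and -0.0027 in PPTR against PNR tumours, and Scd2 was 0.16 in LCS against PPTR tumours and 0.16 in PPTR metastases. Me1 was -0.15 in LCS tumours against liver with the ribosomal-repeat covariate. With the identifier block as a term, HBS1-lineage against PNR tumours gave 0.79 for Scd1 and 0.97 for Pparg. Only Pparg had been called, at -2.98. The cause was not tested.

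Counts of members called that moved by over 1.5 times were, for PPTR tumours against liver, 7 with DESeq2, library totals or 1 identifier block and 1 with the ribosomal-repeat covariate, instead of 4. PNR against liver gave 3 with library totals instead of 7, and LCS against liver 3 with the covariate instead of 9. LCS against normal organoids gave 1 with library totals instead of 2, and LCS against HBS organoids 2 with DESeq2 and 3 with libraries as replicates instead of 1. LCS lung metastases gave 0 with the identifier block instead of 1, and peritoneal metastases 1 with DESeq2 or library totals instead of 0. HBS1-lineage against PNR tumours gave 3 with DESeq2 and 0 with no filter, with the identifier block or with matching PNR libraries summed, instead of 1. HBS1_F2 against HBS1 organoids gave 1 with DESeq2, and the tumour-organoid contrast of LCS and HBS1_F2 gave 1 with library totals, both instead of 0.

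Leaving out 1 library or line at a time, the count was 3 to 7 for PPTR, 5 to 8 for PNR and 9 to 10 for LCS tumours against liver, and 7 to 9 for normal organoids against liver. It was 1 to 2 for LCS against normal organoids, 0 to 2 for LCS against HBS organoids, 6 to 7 for LCS tumours against their organoids, 1 for LCS lung and 8 for PPTR metastases. It was 0 to 6 for HBS1_F2 tumours against organoids and 0 to 4 for HBS1_F2 against HBS1 organoids. It was 0 for HBS1-lineage against PNR tumours, for LCS peritoneal against primary, for lung against peritoneal and for HBS1_F2 metastases. The largest moves among all genes were 1851 instead of 4763 calls for PPTR and 1991 instead of 10415 for LCS tumours against liver with the covariate, 369 instead of 7 for HBS against normal organoids, 1912 instead of 795 for LCS against normal organoids, 2026 instead of 659 for LCS against HBS organoids and 514 instead of 0 for HBS1_F2 metastases with DESeq2. LCS lung metastases had 225 instead of 2724 and HBS1-lineage tumours 0 instead of 1655 with the identifier block.

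No paired analysis was possible because replicate numbers were given in accession order and pair no samples. Leaving out normal livers or PPTR tumours, the identifier block as a term and both tests of a difference between comparisons were chosen after seeing the data. Depth limits genes as low as Thrsp in organoids, with 22 reads in 6 normal organoids.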
